A study of Mus musculus with 6 samples.

Results

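Of the 23412 genes in the table, 10 are followed here: Hk2, Gpi1, Pfkl, Aldoa, Tpi1, Gapdh, Pgk1 and Ldha, which carry glucose to lactate, the enolase gene Eno1, and Gm5506, a retrogene copy of Eno1 that the GENCODE annotation names Eno1b. They were picked by gene symbol with the HN against R1 values of these same libraries already known, so every difference between the lines is given below as a description of these libraries. The libraries are RNA-seq of undifferentiated mouse embryonic stem cells (mESCs) of a 129Sv background, with 3 libraries of R1, the parental wild type line, and 3 of HN, an Htt-/- line that lacks the Htt promoter and exon 1 on both alleles. HN was studied as 1 line, so the loss of Htt and any other difference between these cell lines cannot be told apart. Both lines were grown without feeder cells in serum medium with LIF, SU5402 (an inhibitor of VEGF and FGF receptors), PD184352 (a MEK inhibitor) and CHIR99021 (a GSK3 inhibitor), and were collected together on 3 dates, so that library 1, 2 or 3 of R1 shares its date with the same-numbered library of HN.

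Glycolysis splits glucose into pyruvate in the cytosol and yields ATP and NADH without oxygen, and lactate dehydrogenase then returns the NADH to NAD+ by turning pyruvate into lactate. Undifferentiated ES cells are known for a high glycolytic flux, and several of these genes are classical targets of the hypoxia-inducible factors and of Myc. Enolase, the enzyme just before pyruvate kinase, is encoded by Eno1 in most tissues, by Eno2 in neurons and by Eno3 in muscle.

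In GRCm38 with the GENCODE M21 annotation, Eno1 spans bases 150236721 to 150248879 of chromosome 4, plus strand, and its mRNA of 2027 bases comes from 12 exons. The mRNA of the copy has 1791 bases in 2 exons. Over 1652 aligned bases the mRNAs of Eno1 and Gm5506 differed at 9 (99.5% identity), of which 8 were among the 1302 coding bases. All 8 fell on the last base of a codon. The first 725 coding bases held no difference. The 3 stretches of Eno1 below contain 7 of the coding differences, so they hold most of the coding bases that tell Eno1 from Gm5506. Each is coding sequence of the plus strand of GRCm38, with capitals at the bases where the copy has another base. They come from exon 8 (chr4:150246628-150246652), exon 9 (chr4:150247632-150247641) and exon 11 (chr4:150248108-150248117).
Eno1 exon 8: TggcatggatgtggctgcctcCgaG
Eno1 exon 9: TgtgaccgaA
Eno1 exon 11: TcagatcctC

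Gm5506 spans bases 48045335 to 48048412 of chromosome 18, also on the plus strand. The reads were paired, with 50 bases from each end, so every 50-base stretch of these mRNAs was searched in the annotated transcripts of all other genes. Of the 1603 stretches of the Eno1 mRNA that lie inside the aligned part, 259 (16.2%) occurred in no other gene. The corresponding share of Gm5506 was 8.17% (131 stretches). Taken alone, a read from any of the remaining stretches has more than 1 best place among annotated transcripts. The other read of its pair can still place it, so these shares of single stretches may overstate the ambiguity. The sources used here do not say how reads with several best places were counted. A further copy, the processed pseudogene Gm4735, has no row of its own, and 83.3% of its stretches occur in Eno1 and 91.8% in Gm5506. The map of the Eno1 mRNA shows where the stretches found in no other gene lie. They lie before the aligned part, in narrow bands around some of the differing bases and at the very end. Stretches that start at bases 1125 to 1164 occur in another gene, though some of them cover the differing bases 1145 and 1148.

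**Figure D1:**
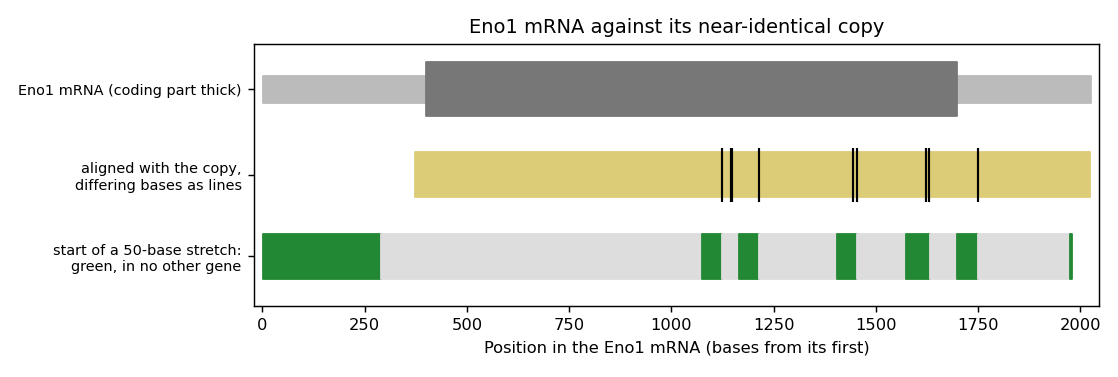
Map of the Eno1 mRNA of 2027 bases from its 5′ end, with the coding part as the thick bar (top), the part aligned with the mRNA of Gm5506 with black lines at the 9 differing bases (middle), and each possible start of a 50-base stretch (bottom), green where the stretch occurs in no other annotated gene. No differing base lies in the first 725 coding bases, where the bottom bar is grey almost throughout.

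Upstream sequences are shown for a set of members that the results return to, Ldha, Gpi1 and Pgk1. Ldha and Gpi1 were higher in HN on each date and passed the test between the lines only with the dates as a block. The mean level of Pgk1 hardly differed, but it was lower in HN on the first date and higher on the others. Each line gives the 250 bases before a RefSeq transcription start (GRCm38.p6), read 5′ to 3′ on the strand of the gene. Capitals mark ACGTG or its reverse complement CACGT, a form of the core of the site that hypoxia-inducible factors bind. The letters CACGTG, an E-box, hold both, and the form GCGTG of that core is not marked. The windows are chr7:46845554-46845803 on the plus strand for Ldha, chrX:106186850-106187099 on the plus strand for Pgk1 and chr7:34230337-34230586 on the minus strand for Gpi1.
Ldha: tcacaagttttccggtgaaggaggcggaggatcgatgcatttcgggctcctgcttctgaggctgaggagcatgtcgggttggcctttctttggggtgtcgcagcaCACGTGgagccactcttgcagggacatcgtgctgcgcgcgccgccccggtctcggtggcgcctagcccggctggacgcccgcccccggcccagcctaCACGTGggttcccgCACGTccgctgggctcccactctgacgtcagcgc
Pgk1: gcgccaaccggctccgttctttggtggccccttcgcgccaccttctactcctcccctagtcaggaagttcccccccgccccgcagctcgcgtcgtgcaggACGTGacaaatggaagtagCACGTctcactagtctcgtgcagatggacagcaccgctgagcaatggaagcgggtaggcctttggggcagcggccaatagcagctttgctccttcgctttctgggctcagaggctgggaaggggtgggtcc
Gpi1: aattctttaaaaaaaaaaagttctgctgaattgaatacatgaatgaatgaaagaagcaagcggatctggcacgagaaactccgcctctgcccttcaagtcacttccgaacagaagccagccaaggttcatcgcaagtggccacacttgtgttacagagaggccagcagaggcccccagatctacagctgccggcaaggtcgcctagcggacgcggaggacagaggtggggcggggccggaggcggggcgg

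At least 1 such match lay in the window of 4 of the 9 members with a RefSeq promoter, namely Hk2, Aldoa, Pgk1 and Ldha. Over all genes with a promoter of this length, 18.5% had one. Several members have more than 1 RefSeq start, and 5 of their 14 windows held a match. The Ldha window shown above held 5 matches, at 145, 144, 48, 47 and 34 bases before the start, because each of its E-boxes counts on both strands, and the window of the other Ldha start held none. Pgk1 had matches at 150 and 131 bases, and no match to ACGTG or CACGT was found for Gpi1, Pfkl, Tpi1, Gapdh or Eno1. The other form, GCGTG, was not counted for the members. Windows of Pfkl, Gapdh and Eno1 hold it, and the window of the other Ldha start holds its reverse complement, CACGC. Over all genes, 30.9% had GCGTG or its reverse complement. These letters are a description of the sequence and say nothing about whether a factor was bound.

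The table held between 1640391 and 3866717 reads on genes per library. Htt was lower in every HN library (18.3 to 58.1 normalized counts) than in any R1 library (199 to 257). Each library had all 10 markers of undifferentiated mESCs, with summed normalized counts of 15665 to 24464, against 567 to 918 for 13 markers of primed or differentiating cells and 12.8 to 108 for 8 markers of fibroblast feeder cells. The third-date libraries stood apart in that they had reads on the most genes (20675 in R1 and 20542 in HN, against 18133 to 19083 in the others). In bulk RNA a lower value can mean fewer cells of a type or less RNA per cell, and these cannot be told apart.

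The members spanned a wide range of levels. Divided by the length of the mRNA with the longest coding sequence, in kb, mean normalized counts in R1 ran from 3359 ± 938 per kb for Aldoa and 3180 ± 665 for Gapdh, through 1463 ± 381 for Tpi1 and 1421 ± 456 for Ldha, to 438 ± 83.9 for Gpi1 and 387 ± 120 for Pgk1 (SD, n = 3). Pfkl (156 ± 52.2 per kb), Hk2 (103 ± 30.9) and Gm5506 (95.5 ± 26.3) followed, and Eno1 came last with 1.21 ± 0.435. The libraries of neighbours in this order overlapped for Aldoa and Gapdh, for Tpi1 and Ldha, for Gpi1 and Pgk1, for Pfkl and Hk2, and for Hk2 and Gm5506. In HN mESCs the order was the same except that Ldha, at 2047 ± 214 per kb, stood above Tpi1, at 1323 ± 203, and there Aldoa and Gapdh were the only neighbours with overlapping libraries.

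**Figure D2:**
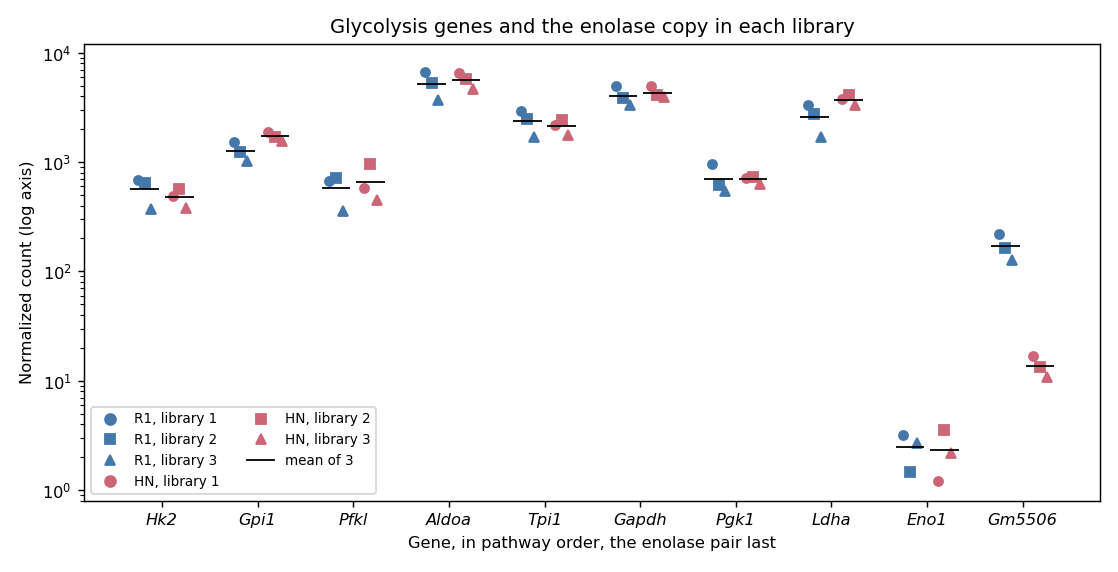
Normalized counts of the 10 genes in each library on a log axis, R1 in blue and HN in red, with a circle, square or triangle for library 1, 2 or 3 and a black line at the mean of 3 libraries. Gm5506 lies between 128 and 221 in R1 and between 10.8 and 17.0 in HN, while Eno1 stays between 1.22 and 3.54 in all 6 libraries.

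Gm5506 showed the largest difference among the members. Its normalized counts were 221, 163 and 128 in R1 libraries 1, 2 and 3, and 17.0, 13.5 and 10.8 in HN libraries 1, 2 and 3, from 208, 221 and 95 reads in R1 and 14, 19 and 10 reads in HN. The highest HN library lay well under the lowest R1 library. R1 averaged 171 ± 47.1 and HN 13.8 ± 3.11 (SD, n = 3), which makes R1 12.4-fold higher. The log2 fold change of HN against R1, on the scale of log2(normalized count + 1), was -3.53 with a standard error of 0.29 (Benjamini-Hochberg adjusted p = 0.000281 by limma). Of the 14276 genes tested, 3 had a lower log2 fold change. Without a variance trend in limma the adjusted p was 0.0592.

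Eno1, the parent gene of that copy, was all but absent from the table. It had 3, 2 and 2 reads in R1 libraries 1, 2 and 3 and 1, 5 and 2 reads in HN libraries 1, 2 and 3, or normalized counts of 3.19, 1.48 and 2.7 in R1 and 1.22, 3.54 and 2.17 in HN. The libraries of the lines overlapped, and since all but 1 library lay at or under 3 reads, taken as the detection limit, no fold is given and the gene was below the mean of 5 normalized counts needed for the test. Over all 6 libraries the reads on Eno1 added up to 15 and those on Gm5506 to 567.

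The sum of Eno1 and its copy was almost all Gm5506. Eno1 plus Gm5506 gave normalized counts of 225, 165 and 131 in R1 libraries 1, 2 and 3 and 18.3, 17.0 and 13 in HN libraries 1, 2 and 3. The log2 fold change of the sum was -3.33 (adjusted p = 0.00033 by limma). Reads that fall on shared stretches cannot be assigned to Eno1 or to its copy from these values, and how much enolase mRNA the cells held was not measured by them. The enolase isoforms of neurons and muscle were also low, with 47.4 ± 24.5 normalized counts of Eno2 in R1 and 32.9 ± 7.2 in HN mESCs, and 45.0 ± 5.85 against 30.7 ± 4.51 for Eno3 (SD, n = 3). Together the enolase rows Eno1, Gm5506, Eno2 and Eno3 came to 266 ± 70.1 normalized counts in R1 and 79.6 ± 8.14 in HN. By comparison, in R1 Pgam1, the mutase of the step before, had 483 ± 129 and Pkm, the pyruvate kinase of the step after, 10538 ± 1729.

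Hexokinase 2, encoded by Hk2, traps glucose in the cell by phosphorylation. Its normalized counts were 692, 642 and 375 in R1 libraries 1, 2 and 3 and 488, 565 and 380 in HN libraries 1, 2 and 3. The lines overlapped, with a log2 fold change of -0.22 (95% interval -0.77 to 0.33, adjusted p = 1 by limma), and on the third date the lines differed by 0.02 on the log2 scale. With the dates as a block the 95% interval was -0.43 to -0.01 (adjusted p = 0.2 by limma).

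Gpi1, glucose-6-phosphate isomerase, was higher in every HN library than in any R1 library. It had 1514, 1241 and 1031 normalized counts in R1 libraries 1, 2 and 3, and 1885, 1698 and 1554 in HN libraries 1, 2 and 3. The means were 1262 ± 242 and 1712 ± 166 (SD, n = 3), a log2 fold change of 0.45 with a standard error of 0.2. The adjusted p was 0.809 by limma across all libraries and 0.000502 with the collection date as a block, a fit that compares the lines within each date. With the block, leaving out library 2 of R1 or of HN ended the call (highest adjusted p 0.0556).

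Pfkl is the liver-type subunit of phosphofructokinase, which commits sugar to glycolysis. In the fit without a block it had the largest standard error (0.31) among the members tested, and with the dates as a block it had 0.11. Its normalized counts were 674, 712 and 357 in R1 and 575, 955 and 454 in HN libraries 1, 2 and 3, and HN was lower on the first date and higher on the others. Its log2 fold change was 0.18 (95% interval -0.5 to 0.86, adjusted p = 1 by limma). In the fit without a block it turned to -0.14 without R1 library 3 and to -0.12 without HN library 2. With the dates as a block and a library left out it stayed between 0.06 and 0.38.

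Aldoa, the aldolase that cuts fructose 1,6-bisphosphate, was the most abundant member per kb in both lines. Its normalized counts were 6604, 5301 and 3703 in R1 and 6496, 5690 and 4622 in HN libraries 1, 2 and 3, a log2 fold change of 0.13 (95% interval -0.4 to 0.67). Tpi1, the triosephosphate isomerase, had 2901, 2460 and 1690 normalized counts in R1 and 2182, 2421 and 1775 in HN, a log2 fold change of -0.12 (95% interval -0.62 to 0.38). In both genes the lines overlapped and the adjusted p was 1 by limma. In the fit without a block, the direction of Aldoa turned without R1 library 3 and that of Tpi1 without R1 library 1. With the dates as a block and a library left out, Aldoa ran from 0.04 to 0.21 and Tpi1 from -0.22 to 0.02.

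Gapdh, which oxidizes glyceraldehyde 3-phosphate and is widely used as a reference gene in RT-qPCR, had 4967, 3875 and 3301 normalized counts in R1 libraries 1, 2 and 3 and 4987, 4071 and 3890 in HN libraries 1, 2 and 3. Within each date the lines differed by 0.01, 0.07 and 0.24 on the log2 scale, while the second date lay at -0.33 and the third at -0.47 from the first. Over all libraries its log2 fold change was 0.1 (95% interval -0.36 to 0.57, adjusted p = 1 by limma). In fits without a block it turned to -0.07 under quantile normalization and to -0.03 without R1 library 3. With the dates as a block and a library left out it ran from 0.04 to 0.15. Pgk1, the phosphoglycerate kinase that makes the first ATP of the pathway and lies on the X chromosome, had 957, 613 and 549 normalized counts in R1 and 719, 733 and 634 in HN. With a log2 fold change of 0.02 (95% interval -0.47 to 0.5, adjusted p = 1 by limma), its sign depended on the processing.

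Ldha, the lactate dehydrogenase subunit that favours lactate, had 3318, 2733 and 1683 normalized counts in R1 libraries 1, 2 and 3 and 3794, 4060 and 3295 in HN libraries 1, 2 and 3. HN was higher than R1 on every date, by 0.19, 0.57 and 0.97 on the log2 scale, although the lowest HN library lay just under the highest R1 library. The means were 2578 ± 828 and 3716 ± 389 (SD, n = 3), a log2 fold change of 0.58 with a standard error of 0.25. The adjusted p was 0.796 by limma without a block and 0.000105 with the dates as a block, where the call held without each library in turn. Under the block, leaving out either library of a date removes that date from the comparison, so these fits amount to a single check per date. DESeq2 with the same block gave an adjusted p of 0.0968.

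Copies of the other members were searched with stretches of the same length, over all annotated transcripts of each gene rather than an aligned part. The share of 50-base stretches that also occur in transcripts of another annotated gene was 53.9% for Pgk1, almost all in the copy Pgk1-rs7, 25.1% for Gapdh and 15.8% for Gpi1. It was 9.26% for Ldha, 5.13% for Aldoa, 4.18% for Tpi1, 0.0298% for Pfkl and 0% for Hk2. On this measure over all transcripts it was 26.0% for Eno1 and 85.2% for Gm5506. It was 36.2% for Pgam1 and 25.8% for Pkm, the enzymes set beside enolase above. The Eno1 transcripts together cover 5379 exon bases, against 2027 in the mRNA mapped above. On that mRNA alone only 27.8% of stretches (550 of 1978) occurred in no other gene. The order of genes on this measure thus also depends on which transcripts are annotated. Gapdh had 58 annotated copies that share at least 20% of their stretches with it. Of these, only Gm12070 has a row of its own in the table, with 2 to 6 reads per library, so for Gapdh few reads were counted on a copy.

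Over the whole table, limma called 35 of 14276 genes between the lines at an adjusted p under 0.05 (0.245%), 17 higher (0.119%) and 18 lower (0.126%) in HN. All 35 also had an absolute log2 fold change above 1. Of the 9 members tested, 1 was called, Gm5506. With the dates as a block 1354 genes were called (9.48%), 780 higher (5.46%) and 574 lower (4.02%), of which 278 (1.95%) had an absolute log2 fold change above 1. The members called with the block were Gpi1 and Ldha, higher in HN, and Gm5506, lower in HN with an adjusted p of 2.24e-15. A clear gap between all R1 and all HN libraries was seen for 10.8% of the genes tested and for 2 of the 9 members, Gpi1 and Gm5506. Since the members were chosen on this contrast, nothing is read from these counts. The abundant members (all but Eno1 and Gm5506) had log2 fold changes from -0.22 to 0.58 with a median of 0.12, while the median of all genes tested was -0.01. An exact permutation test of 3 against 3 libraries cannot give a two-sided p below 0.1, and the p-values here measure only the spread between these libraries of 1 line each.

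**Figure D3:**
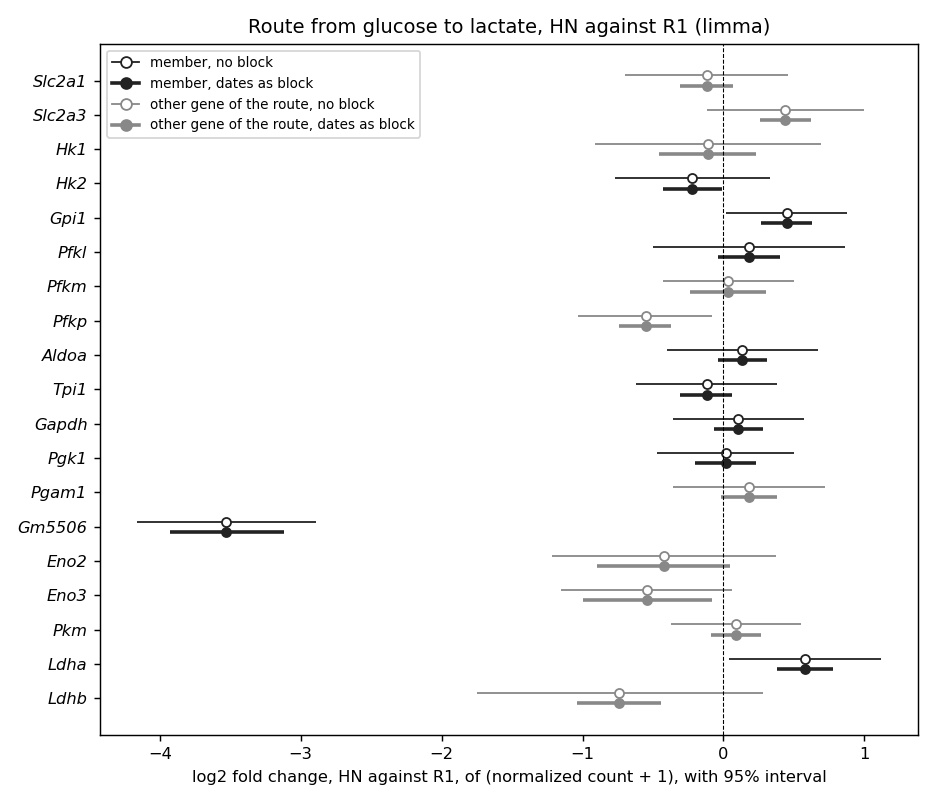
Log2 fold change of HN against R1 on the scale of log2(normalized count + 1), with 95% intervals from limma, for the route from glucose uptake (top) to lactate (bottom). Members are in black and other genes of the route in grey, open circles without and filled circles with the dates as a block. Eno1 is not shown because it was not tested. Gm5506 at -3.53 stands far from the other genes, which lie between -0.74 (Ldhb) and 0.58 (Ldha).

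The members were chosen on R1 against HN within same-date pairs, with the levels on each date already known, so the values across dates are not independent of that choice. In both lines the 8 abundant members had their lowest level on the third date, and so did Gm5506. The mean of the 2 libraries of a date fell from 6550 on the first to 5496 on the second and 4162 on the third date for Aldoa, from 4977 to 3973 and 3596 for Gapdh, and from 1699 to 1470 and 1293 for Gpi1. Pfkl went another way, with 625, 833 and 405 normalized counts, the highest on the second date in both lines.

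By an F test of the date terms in limma with the line as a covariate, 8 of the 9 members tested differed between dates (adjusted p from 1.26e-06 for Pfkl to 0.0085 for Pgk1), and Gm5506 did not pass (adjusted p = 0.0543). The same test called 46.0% of all genes and 69.5% of those with a mean of at least 300 normalized counts, the range in which all 8 lie. The third date was 0.42 to 0.66 lower than the first on the log2 scale for these 8 genes, with values of -0.42 for Gpi1 and -0.66 for Aldoa at the ends and a median of -0.56. The median was -0.04 for all genes tested and -0.2 for the genes with a mean of at least 300. A lowest level on the third date in both lines was found for 29.5% of all genes and 53.8% of those abundant genes. Without a variance trend limma called 0 genes between dates (5326 had an unadjusted p under 0.05, among them 4 members), DESeq2 called 6 and edgeR 9 of the members, and quantile normalization left 6 called with a median of -0.31. Without R1 library 1 the differences of the 8 genes ran from -0.55 to -0.17 with a median of -0.32, and 6 members were called.

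The third-date libraries also had lower sums of the mESC markers (15665 in R1 and 17908 in HN, against 19843 to 24464 on the other dates) and higher sums of the feeder markers (108 and 73.6, against 12.8 to 57.5). Of the 10 mESC markers, only 2 (Pou5f1 and Esrrb) were lower in both third-date libraries than in all others, and 0 were higher. Among the 8 feeder markers, 4 (Col1a1, Col1a2, Col3a1 and Lum) were higher in both third-date libraries than in all others, and Postn, Dcn and Acta2 were each at 0 in 1 library. Lum lay near the detection limit even on the third date, with 5.4 normalized counts in R1 and 3.2 in HN. There 3 reads are worth 4.04 and 3.25. Of the 13 markers of primed or differentiating cells, 8 (Fgf5, Mixl1, Gata4, Gata6, Sox17, Sox1, Pax6 and Nes) were higher in both third-date libraries than in all others, as for the endoderm factor Gata6 with 40.4 in R1 and 42.2 in HN against 8.1 to 14.6 normalized counts. The abundant Dnmt3b and Eomes were lower in both, so the sum of the list (621 and 647) stayed within the 567 to 918 of the other libraries. The part of these marker differences in the lower member levels was not tested.

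**Figure D4:**
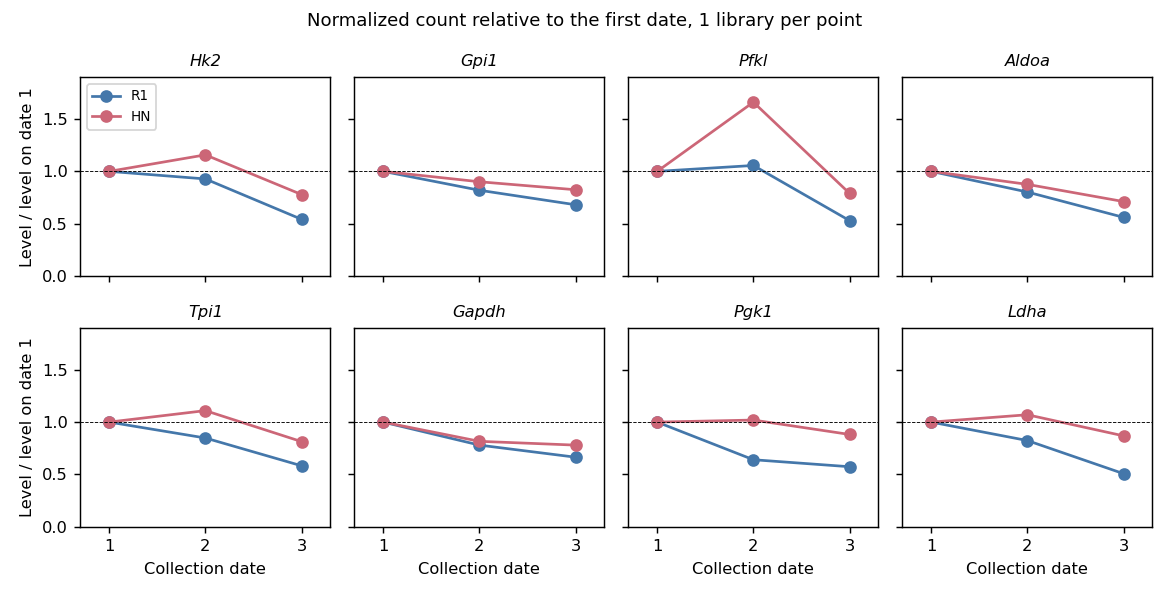
Normalized count of each of the 8 abundant members on the 3 collection dates divided by its value on the first date, R1 in blue and HN in red, 1 library per point. In each panel both lines are lowest on the third date, and the R1 line ends below the HN line.

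The fall from the first to the third date was larger in R1 than in HN for each of the 9 members tested, so that HN minus R1 was larger on the third date. That held for 53.3% of all genes tested and 80.4% of those with a mean of at least 300. The 8 abundant members together took 0.837%, 0.659% and 0.574% of the reads on genes in R1 libraries 1, 2 and 3, and 0.835%, 0.737% and 0.706% in HN libraries 1, 2 and 3. On the first date the lines were thus alike in this share, and with 1 library per line and date a difference between dates in the effect of the line could not be tested.

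Over the 6 libraries, the 28 pairs among the 8 abundant members had Pearson correlations of log2(normalized count + 1) from 0.23 (Hk2 and Gpi1) to 0.98 (Hk2 and Tpi1), with a median of 0.73. All pairs share the same libraries and dates. The genes most like the mean of the members other than Gm5506 were Chmp5 (r = 0.993), Pop7 (0.984), B3gat3 (0.98), Dcaf10 (0.98) and Xrcc1 (0.979). In that mean Eno1, near the detection limit, had the same weight as each abundant member. Gm5506 was most like Gm13718 (0.997), Hist1h4i (0.99), Ramp3 (0.989), Pdzd2 (0.985) and Hist1h2bp (0.985). Of these, the histone genes Hist1h4i (log2 fold change -2.56, adjusted p = 0.000471 by limma) and Hist1h2bp (-1.74, adjusted p = 0.011) also passed the test between the lines. Since Gm5506 itself separates the lines, genes picked for likeness to it tend to do so too, and nothing further is read from this.

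The genes that complete the route were compared next. Glucose enters through Slc2a1 and Slc2a3, the transporters GLUT1 and GLUT3. Slc2a1 had 2179, 1747 and 1097 normalized counts in R1 and 1566, 1827 and 1137 in HN libraries 1, 2 and 3. Slc2a3 had 8051, 5253 and 4681 in R1 and 10310, 6605 and 7303 in HN, higher in HN on every date, with a log2 fold change of 0.44 (adjusted p = 1 by limma, 0.000633 with the dates as a block). Without the block it ran from 0.25 without HN library 1 to 0.68 without R1 library 1. Per kb, Slc2a3 stood at 1514 ± 456 in R1 against 514 ± 167 for Slc2a1 (SD, n = 3), the higher of the pair.

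Among enzymes that share a step with a member, Hk1, the hexokinase of most tissues, was below Hk2 per kb (22.4 ± 9.01 against 103 ± 30.9 in R1) and had a log2 fold change of -0.11 (adjusted p = 1 by limma). The platelet-type phosphofructokinase Pfkp had 1522, 1265 and 949 normalized counts in R1 and 1009, 794 and 719 in HN, lower in HN on every date. Its log2 fold change was -0.55 (adjusted p = 0.737 by limma, 4.57e-05 with the block), on the other side of 0 from that of Pfkl, while the muscle type Pfkm was at 0.03. Per kb in R1 these subunits stood at 300 ± 69.3 for Pfkp, 156 ± 52.2 for Pfkl and 47.3 ± 6.62 for Pfkm.

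Pgam1 and Pkm, the next steps after Pgk1 apart from enolase, had log2 fold changes of 0.18 and 0.09 (adjusted p = 1 for each by limma). Pkm was the most abundant enzyme of the route, with 4333 ± 711 normalized counts per kb in R1 and 4587 ± 399 in HN (SD, n = 3). Ldhb, the lactate dehydrogenase subunit that favours pyruvate, had 153, 79.9 and 274 normalized counts in R1 and 117, 43.9 and 139 in HN, with a log2 fold change of -0.74 (adjusted p = 1 by limma, 0.000705 with the block). Without the block this value ran from -1.19 without R1 library 2 to -0.23 without HN library 2, and it was -0.31 without R1 library 3. Ldhb thus lay on the other side of 0 from Ldha, and its highest library in each line was the third-date one, where Ldha was lowest.

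The neighbouring pathways were followed by fixed gene lists, and without the block limma called 0 of their 113 genes tested, of which 12 had an unadjusted p under 0.05 (5.91% of all genes tested did). On the recovered reads edgeR also called 0 and DESeq2 called 3, Rpe, Pygb and Epas1. With the dates as a block the shares over all genes were 5.46% higher and 4.02% lower. Of the other glycolysis isoenzymes, 15 of 20 were tested, with a median log2 fold change of -0.11, and 2 were called with the block, Pfkp and Ldhb, both lower. Among 8 tested genes of glucose and lactate transport (median 0.02) those called with the block were Slc2a3 and Bsg, both higher. Bsg, basigin, carries lactate transporters to the membrane and had 2096 ± 461 normalized counts in R1 and 2536 ± 275 in HN (log2 fold change 0.29, adjusted p = 0.0267 by limma with the block). The 5 genes that set fructose 2,6-bisphosphate, the activator of phosphofructokinase, had a median of 0.1, and with the block limma, edgeR and DESeq2 called 0 of them, with 1 at an unadjusted p under 0.05 by limma.

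For the entry of pyruvate into mitochondria, 13 genes were tested with a median of -0.16, and the block called Pdk1, lower in HN. Pdk1, a kinase that switches off pyruvate dehydrogenase, had 1329 ± 301 normalized counts in R1 and 842 ± 126 in HN (SD, n = 3) without overlap, a log2 fold change of -0.64 (adjusted p = 0.581 by limma, 4.43e-06 with the block). In the tricarboxylic acid cycle (19 tested, median -0.01) the block called Cs, the citrate synthase, with a log2 fold change of 0.4, Idh3g with 0.53 and Idh2 with 0.3, both isocitrate dehydrogenase genes, as higher and Suclg2, a succinyl-CoA ligase subunit, with -0.77, as lower. In gluconeogenesis 4 of 7 genes were tested, with a median of -0.31, and with the block these tools called 0 again, with 1 at an unadjusted p under 0.05 by limma.

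Side routes of glycolysis were covered by the next lists. In the pentose phosphate pathway (8 tested, median 0.07) Rpe, ribulose-5-phosphate epimerase, had 265 ± 62.4 normalized counts in R1 and 577 ± 54.2 in HN without overlap, a log2 fold change of 1.14 (adjusted p = 0.0564 by limma, 1.35e-08 with the block). Pgls, the lactonase of the same pathway, had a log2 fold change of -0.59 and was called lower with the block (adjusted p = 0.00223 by limma). The branches to glycerol phosphate, serine and glycogen (14 tested, median -0.02) had 2 genes higher and 3 lower with the block. Pygb, the brain-type glycogen phosphorylase, had 113 ± 52.0 normalized counts in R1 and 262 ± 54.8 in HN (log2 fold change 1.28), and Gys1, a glycogen synthase, 115 ± 40.0 and 193 ± 65.0 (0.75). Lower were Pygl, the liver-type phosphorylase, at -0.83 and Phgdh, which opens serine synthesis, at -0.59.

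Of 13 regulators of glycolysis genes (median 0.04), the block called 1, Epas1, which encodes HIF-2 alpha. Epas1 had 112 ± 42.0 normalized counts in R1 and 40.0 ± 12.1 in HN without overlap, a log2 fold change of -1.43 (adjusted p = 0.165 by limma, 3.45e-07 with the block). Among 14 tested hypoxia response genes outside glycolysis (median 0.11), Ero1l, a disulfide oxidase of the endoplasmic reticulum, had a log2 fold change of 0.64 and was called higher with the block. Vegfa, the vascular growth factor, at -0.53 and Egln3, a prolyl hydroxylase of hypoxia-inducible factors, at -1.05 were called lower with it. DESeq2 with the same block did not call Vegfa (adjusted p = 0.204), nor Idh2 (0.14) or Pygl (0.277) of the lists above. The shares called in these lists were not compared with the rest of the genes by a test.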

How the data were processed

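RNA-seq of 3 R1 and 3 HN libraries was analysed from the table of normalized counts (signal per gene) that the authors deposited. According to the submitters' processing notes and the study's methods, reads were aligned to mm10/GRCm38 with STAR, PCR duplicates were removed with Picard, reads on exons were counted per gene with HTSeq, and counts were divided by DESeq2 size factors. Tool versions, the gene annotation and the use of strand are not given in the sources used here. Columns of per-sample values that were not used numbered 0, and 27 rows with a date in place of a symbol are named nowhere.

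Divided by what 1 read is worth in its library, 100% of values came out whole (tolerance 0.01 reads), so reads were recovered for depth and for edgeR 4.0.16 and DESeq2 1.42.0, run as alternatives. Intervals and limits cover counting error only where reads are concerned, since the reads carry no molecular identifiers.

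The main test was limma 3.58.1 (R 4.3.3) with a variance trend on log2(normalized count + 1), for genes with a mean of at least 5, with Benjamini-Hochberg adjustment over all 14276 genes tested. A gene was called at an adjusted p under 0.05. The same-numbered libraries share a date in the labels. Their deviations from the line means correlated at 0.25, 0.69 and 0.77, while R1 library 1 correlated at 0.34 with HN library 2, of another date. Because of the shared dates, the date was used as a block in a second fit, whose value is given at least where it changes a call. The scripts were tested on simulated data.

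The members and gene lists were chosen with earlier results of these data known. The text names the members, Htt, the genes that complete the route, in each list every gene called in either fit if at most 4 or else the 2 highest and 2 lowest log2 fold changes, the 5 genes most correlated with each pattern, and copies with a row of their own. Alternatives were the block, edgeR, DESeq2, other pseudocounts and filters, median centring, quantile normalization, no trend, and each library left out. Chosen after seeing the data were fits without the third date, fits under the block with each library left out, and the blocked fit of the sum of Eno1 and Gm5506.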

Additional observations from a re-analysis of the deposited data

How the results depend on the processing

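Without the block, limma called 17 genes higher and 18 lower in HN. With the replicate block it called 780 and 574, and edgeR with the block 920 and 685. DESeq2 called 68 and 44, and with the block 334 and 178. With the block and without the third date the counts were 836 and 847. Median centring gave 30 higher and quantile normalization 27, and no variance trend gave 0 in each direction (767 genes at an unadjusted p under 0.05). Leaving out 1 library gave 3 to 30 higher and 4 to 26 lower without the block, with 4 and 4 without R1 library 1 and 3 and 10 without HN library 1. With the block it gave 297 to 830 higher and 190 to 852 lower, with 329 and 190 without R1 library 2 and 297 and 212 without HN library 2. Genes that differed between dates numbered 6569, against 2441 by DESeq2, 4090 at a mean of at least 50, 4203 under quantile normalization, 0 without a trend, and 3292 to 7545 with a library left out, lowest without library 2 of HN and of R1 (3586). Median centring moved the median difference of the third from the first date over all genes from -0.04 to 0.07, and that of the 8 abundant members from -0.56 to -0.44.

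For the members, Gm5506 kept its direction under all alternatives run and lost the call without a trend (-3.53). The replicate block left Gpi1 at 0.45 and Ldha at 0.58 and called both, as did edgeR with the block (0.46 and 0.58), DESeq2 with the block for Gpi1 (0.45), and the block without the third date (0.38 for each). The block by itself changed no other member's call. Hk2 was called at -0.34 with the block without the third date, and also without library 3 of either line. Under the block a date left with 1 library adds nothing to the comparison of the lines. Leaving out either library of a date is thus the same comparison as leaving out that date, and not a separate check. Quantile normalization turned Gapdh to -0.07 and Pgk1 to -0.02, edgeR and DESeq2 without the block turned Pgk1 to -0.02, and leaving out the third date turned it to -0.08, with or without the block. With 1 library left out and no block the log2 fold changes ran from -0.5 to -0.06 for Hk2, 0.32 to 0.59 for Gpi1, -0.14 to 0.42 for Pfkl, -0.09 to 0.32 for Aldoa, -0.34 to 0.05 for Tpi1, -0.03 to 0.26 for Gapdh, -0.14 to 0.26 for Pgk1 and 0.3 to 0.79 for Ldha. On the route they ran from -0.4 to 0.1 for Slc2a1, -0.48 to 0.21 for Hk1, -0.09 to 0.14 for Pfkm, -0.07 to 0.38 for Pgam1, -0.01 to 0.22 for Pkm, 0.25 to 0.68 for Slc2a3 and -1.19 to -0.23 for Ldhb. Listed genes called with the block moved most, without it, for Idh2 (0.06 without R1 library 3) and Pygl (-0.19 without HN library 2). They also moved by over 1.5 times for Bsg (0.17 to 0.46), Pgls (-0.9 to -0.33), Gys1 (0.42 to 1.07), Cs (0.26 to 0.5), Idh3g (0.3 to 0.66), Vegfa (-0.75 to -0.25), Egln3 (-1.42 to -0.65) and Ero1l (0.4 to 0.91). Pfkl was called without library 1 of either line under the block, higher in HN (0.38). The cause of these shifts was not tested.

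With 3 libraries per line from 1 line each, small differences such as those of Aldoa, Tpi1, Gapdh and Pgk1 were not detectable. The values of Eno1 are limited by its reads, at most 5 per library.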
